A study of Mus musculus with 6 samples.

Results

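The genes described here are Myc, its relative Mycn, their partner Max and 35 genes whose products make ribosomes. They were chosen by gene symbol, and all 38 were found among the 18268 genes of the expression table. Expression was measured by bulk RNA sequencing in colorectal tissue of C57BL/6 mice with colitis, a model of gut inflammation in which dextran sulfate sodium (DSS) damages the epithelium. Every mouse of both groups was given DSS over 7 days. Berberine (BBR), a plant alkaloid, was gavaged over 6 days in 3 mice, and 3 others received sulfasalazine (SASP), a drug in clinical use for colitis, over the same time. The methods of the study describe adult male mice. Its text speaks of rectal tissue for BBR and of colon for SASP, whereas the labels give the same colorectal source for both, so a difference in gut region cannot be told apart from one between the drugs. No healthy or undrugged colitis mice were analysed here, so each difference below is between the drugs, and a lower value under BBR is equally a higher value under SASP.

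Myc and Mycn are transcription factors that pair with Max and bind the DNA letters CACGTG, called an E-box. In the gut, Myc is a target of Wnt-β-Catenin signalling and is made mainly in the dividing cells of the lower crypt. Among the best known targets of Myc are the genes for ribosome production. That production starts in the nucleolus, where RNA polymerase I copies the ribosomal RNA genes. Small nucleolar ribonucleoproteins (snoRNPs) then modify and help cut the precursor RNA, and sets of assembly factors build the small (40S) and large (60S) ribosomal subunits around it.

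Values are given as FPKM, expression scaled by transcript length and library size, so that levels can be compared between genes. Fold changes are on the log2(FPKM + 1) scale, as BBR minus SASP, with the standard error (SE) from a linear model in limma. P-values are limma values adjusted over all 12072 genes tested, with a threshold of 0.05. All 37 members other than Mycn had an FPKM of at least 1 in every mouse, so the filter on low values selected none of them through 1 group. From the table alone the depth was estimated at 16400000 to 18200000 reads per mouse. Taking the longest transcript of each gene, Gar1 had the lowest single estimate of the tested members, at about 72.0 to 241 reads per mouse. Such estimates, and their order, are too high for genes expressed mainly from shorter transcripts. BBR mouse 3 stood apart from the other BBR mice. Across genes its log2 values correlated with BBR mice 1 and 2 at 0.953 and 0.949, while these correlated with each other at 0.987. With SASP mice 1, 2 and 3 the values of BBR mouse 3 correlated at 0.920, 0.953 and 0.944. The 10 epithelial markers were detected in all mice, and their summed FPKM overlapped between groups, at 8021 to 8891 under BBR and 8415 to 9635 under SASP. Single epithelial markers did differ, with 2 of 10 higher and 1 lower past the threshold and fold changes from -1.18 to 1.5. Of all tested genes 3.82% were called higher and 5.04% lower. With bulk tissue, fewer cells of a type and less RNA per cell cannot be told apart.

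Many ribosome biogenesis genes were lower in colitis mice receiving BBR than in those receiving SASP. Of the 37 tested members 14 passed the threshold, and all 14 were lower under BBR. This is 37.8% of the members, against 5.04% of all tested genes that were called lower. Of all genes 3.82% were called higher, and 8.86% were called in either direction. The fold change was below 0 in 32 members and above 0 in 5, against 39.2% of all genes below 0. At an unadjusted p of at most 0.05, 26 members were lower and 0 higher, against 13.4% of all genes that were lower. The 14 genes were Myc, Ncl, Nolc1, Gnl3, Nop56, Nop58, Rrp9, Dkc1, Gar1, Nhp2, Wdr43, Heatr1, Ltv1 and Rrs1. The 3 BBR values lay below the 3 SASP values in 29 members (78.4%), against 16.6% of all tested genes. Not a single tested member had all its BBR values above its SASP values, where 21.3% of all genes did. The median log2 fold change was -0.59 over the members and 0.10 over all tested genes, and 10 members lay below the 5th percentile of all genes (-0.80). The count of calls rested on single mice. It was 0 without SASP mouse 1 or SASP mouse 3, 1 without BBR mouse 1 (Nhp2), 3 without SASP mouse 2 (Nhp2, Ltv1 and Gnl3) and 8 without BBR mouse 2 (Nhp2, Ltv1, Gnl3, Gar1, Nolc1, Nop56, Ncl and also Fbl). Myc itself passed in only 1 of these 6 fits, that without BBR mouse 3. Without BBR mouse 3 the count was 27, of which 24 were lower and 3, Polr1c, Ubtf and Tsr1, were higher under BBR. The 14 fold changes stayed below 0 in every one of these fits. Without SASP mouse 1 and SASP mouse 3 the members' median was -0.67 and -0.56. Calls among all genes fell as well in these fits, from 1069 to 59 and 51.

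**Figure D1:**
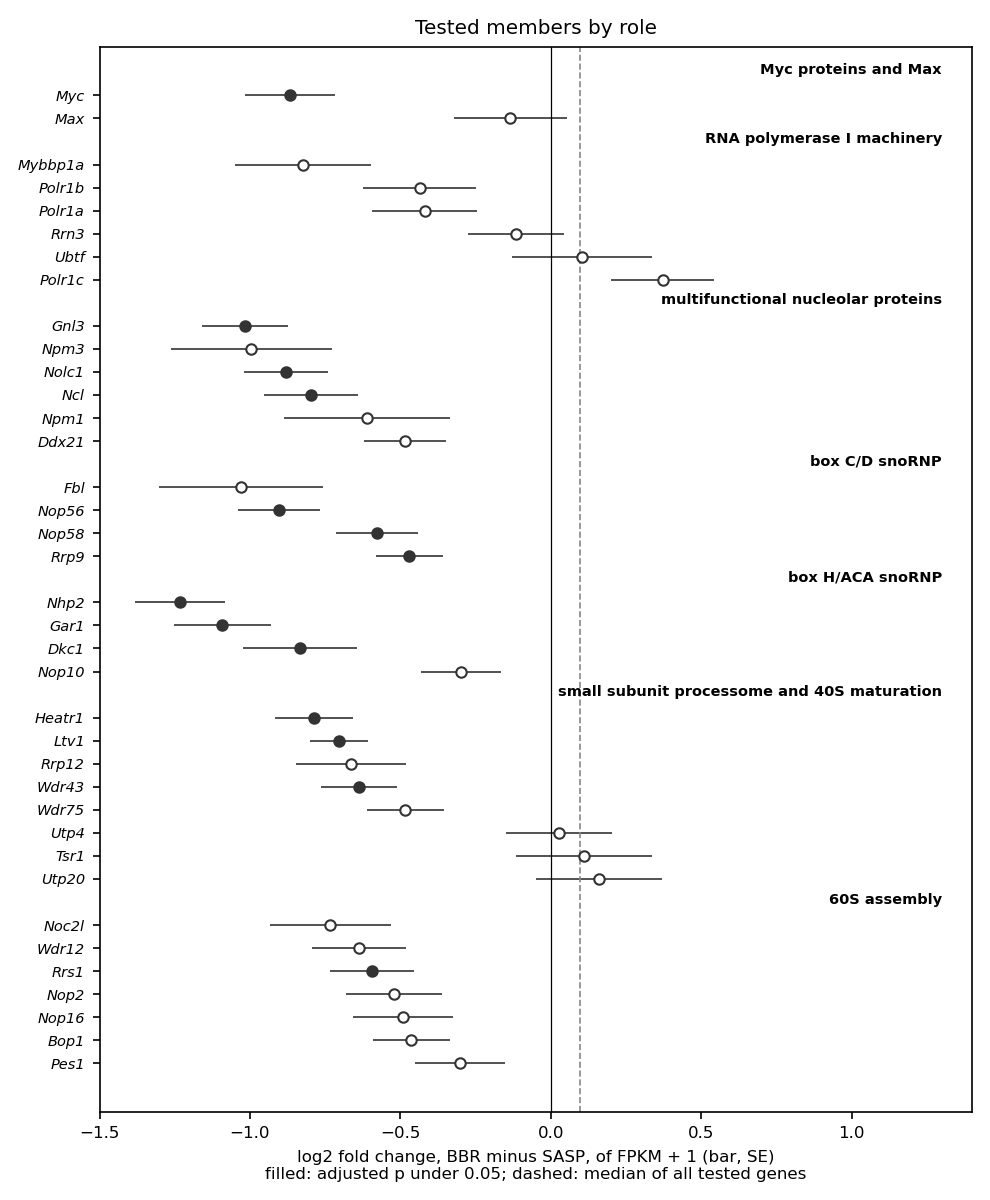
Log2 fold changes (BBR minus SASP, horizontal axis) of the 37 tested members, grouped by role, with the standard error as a bar, filled points for an adjusted p under 0.05 and a dashed line at the median of all tested genes (0.10). All members of the nucleolar, snoRNP and 60S groups lie left of 0, while Polr1c, Ubtf, Utp4, Tsr1 and Utp20 lie right of it.

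Myc was expressed at a low level and was lower under BBR in every mouse. Myc (Gene ID 17869) was at 3.61, 3.29 and 3.78 FPKM in BBR mice 1, 2 and 3 and at 5.98, 8.35 and 7.77 FPKM in SASP mice 1, 2 and 3. The highest BBR mouse thus lay below the lowest SASP mouse, and the SASP mean was 2.07 times the BBR mean (log2 fold change -0.87, SE 0.15, adjusted p = 0.0230). Max, which Myc needs in order to bind DNA, was far more abundant. Its level was 184, 167 and 121 FPKM in BBR mice and 179, 144 and 191 FPKM in SASP mice. The groups overlapped for Max, and its fold change of -0.13 (SE 0.19, adjusted p = 0.641) was smaller than its SE. Mycn, a relative of Myc best known from embryonic and neural tissue, was listed at 0.79, 1.14 and 0.18 FPKM in BBR mice and at 0.22, 0.14 and 0.24 FPKM in SASP mice. It lay below the filter and was not tested, with overlapping groups and about 6.81 to 50.1 reads per mouse. The Myc to Max ratio within a mouse, chosen after the values were seen, was 0.0196 to 0.0312 under BBR and 0.0333 to 0.0580 under SASP.

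Because Myc and Max bind the E-box, the letters CACGTG, which read the same on both strands, were searched in the promoters of the members. RefSeq promoter windows of GRCm38.p6, 250 bases before to 50 after each gene start, were given for 32 members, and Myc, Npm1, Fbl, Rrp12, Bop1 and Rrs1 had no entry. A window with CACGTG was found for 10 of the 32 members (31.2%), for 17 of 97 other ribosome biogenesis genes with a window (17.5%), for 11.7% of tested genes and for 8.09% of all genes with a window. Counted by window, 7.15% of all windows held the letters. The letters stood in 2 of 12 called members with a window, Ltv1 and Wdr43, and in 8 of 20 members that were not called. Among all genes called lower under BBR 10.9% had them. The 6 stretches below are shown 5′ to 3′ on the coding strand with CACGTG in capitals, first the called genes and then members that did not pass the threshold.
Ltv1 (chr10:13193092-13193121, minus strand): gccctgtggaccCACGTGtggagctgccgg
Wdr43 (chr17:71616220-71616249, plus strand): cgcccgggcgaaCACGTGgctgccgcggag
Max (chr12:76962234-76962263, minus strand): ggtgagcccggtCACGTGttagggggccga
Utp4 (chr8:106893643-106893672, plus strand): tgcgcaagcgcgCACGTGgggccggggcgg
Nop2 (chr6:125131796-125131855, plus strand): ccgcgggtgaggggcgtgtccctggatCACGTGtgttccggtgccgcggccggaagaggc
Rrn3 (chr16:13780624-13780683, plus strand): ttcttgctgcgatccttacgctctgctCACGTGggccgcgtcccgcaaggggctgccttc
Counted from the gene start, the first base of the E-box lay at 29 in Ltv1, 18 in Wdr43 and 16 in Utp4, inside the transcribed part, and at -60 in Nop2, at -48 and again at -215 in Rrn3 and at -3 in Max. A match of letters does not show that Myc binds there, and windows without a match say nothing of binding elsewhere.

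Of the 6 genes of the RNA polymerase I machinery 0 passed the threshold in limma, against 8.86% of all tested genes in either direction. At an unadjusted p of at most 0.05, 2 were lower, against 13.4% of all genes. Polr1a and Polr1b, which encode the largest catalytic subunits, lay below SASP in all BBR mice but spread widely. Polr1a was at 2.75, 3.20 and 1.95 FPKM in BBR mice and at 3.38, 4.39 and 3.70 FPKM in SASP mice, a fold change of -0.42 (SE 0.17, adjusted p = 0.153). Polr1b had a fold change of -0.44 (SE 0.19, adjusted p = 0.161). Polr1c, a subunit shared with RNA polymerase III, had a fold change of the other sign. It was at 39.5, 38.1 and 25.6 FPKM in BBR mice and at 25.5, 27.1 and 25.2 FPKM in SASP mice, so BBR mice 1 and 2 were high and BBR mouse 3 lay among the SASP mice (fold change 0.37, SE 0.17, adjusted p = 0.184). Rrn3, which carries the polymerase to its promoter, and Ubtf, which binds along active ribosomal RNA genes, had overlapping groups and fold changes of -0.12 and 0.10 (adjusted p = 0.641 and 0.781). Mybbp1a, a nucleolar protein that binds transcription factors, came nearest to the threshold (adjusted p = 0.0647). It was at 9.29, 11.96 and 6.00 FPKM in BBR mice and at 14.5, 17.9 and 16.7 FPKM in SASP mice, a fold change of -0.82 (SE 0.23). The sign of Ubtf turned with median-ratio scaling (-0.03).

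All 6 multifunctional nucleolar genes were lower in each BBR mouse than in each SASP mouse, against 16.6% of all tested genes. Of them 3 passed the threshold. Gnl3 encodes nucleostemin, a GTP-binding nucleolar protein of stem and dividing cells. It was at 5.15, 6.38 and 6.65 FPKM in BBR mice and at 11.5, 14.3 and 14.0 FPKM in SASP mice (fold change -1.02, SE 0.14, adjusted p = 0.0146). Nolc1, a chaperone of snoRNPs, was at 6.6, 7.36 and 6.63 FPKM against 11.3, 15.4 and 13.9 FPKM (fold change -0.88, SE 0.14, adjusted p = 0.0186). Its BBR mice lay close together, and so did those of Gnl3, with SDs of 0.430 and 0.800 FPKM. Ncl, or nucleolin, binds precursor ribosomal RNA and is a classic Myc target. It was at 37.8, 40 and 26.8 FPKM in BBR mice and at 60.5, 59.1 and 61.5 FPKM in SASP mice (fold change -0.80, SE 0.16, adjusted p = 0.0317). Npm3, Npm1 and Ddx21 did not pass. Npm3 is a relative of the nucleolar chaperone Npm1, and its difference was about as large as that of Gnl3. It was at 20.5, 21.8 and 10.4 FPKM against 39.1, 30.8 and 33.7 FPKM (fold change -1.0, SE 0.27, adjusted p = 0.0621), with BBR mouse 3 far below the other BBR mice. The same mouse was low for Npm1, at 93.8 FPKM against 194 and 191 FPKM in BBR mice 1 and 2 and 245, 226 and 224 FPKM in SASP mice (fold change -0.61, SE 0.28, adjusted p = 0.177). Ddx21, an RNA helicase, had a fold change of -0.49 (SE 0.14, adjusted p = 0.0669).

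Box C/D snoRNPs guide ribose methylation and early cleavage of the precursor. Their genes were lower under BBR without overlap in 4 of 4, against 16.6% of all tested genes, and 3 passed the threshold. Nop56, a core protein, was at 12.4, 12.7 and 10.5 FPKM in BBR mice and at 19.7, 25.6 and 24.1 FPKM in SASP mice (fold change -0.90, SE 0.14, adjusted p = 0.0171). Its partner Nop58 was at 15.5, 17.7 and 13.6 FPKM against 20.7, 25.6 and 25 FPKM (fold change -0.58, SE 0.14, adjusted p = 0.0471). Rrp9, a protein of the snoRNP that acts in early cleavage, had a small difference with a small spread, at 4.13, 4.41 and 4.04 FPKM against 6.02, 6.21 and 6.35 FPKM (fold change -0.47, SE 0.11, adjusted p = 0.0482). It was the called member with the highest adjusted p. Fbl, or fibrillarin, the methyltransferase of these particles, showed the opposite case of a large difference with a large spread. It was at 19.9, 26.8 and 11.5 FPKM in BBR mice and at 41.5, 38.3 and 36.1 FPKM in SASP mice, a fold change of -1.03 (SE 0.27) that did not pass (adjusted p = 0.0603). The range of the BBR mice was 11.5 to 26.8 FPKM for Fbl, and the call was made without BBR mouse 2 and without BBR mouse 3.

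Box H/ACA snoRNPs, which carry out pseudouridylation and also form part of telomerase, held the members with the largest differences. Nhp2 was at 12.8, 13.5 and 9.19 FPKM in BBR mice and at 28.7, 28.8 and 28.9 FPKM in SASP mice. The SASP mean was 2.43 times the BBR mean, and the SD was 2.32 FPKM among BBR mice and 0.0954 FPKM among SASP mice (fold change -1.23, SE 0.15, adjusted p = 0.00941). Gar1 was at 3.98, 5.21 and 3.38 FPKM against 10.4, 10.4 and 9.02 FPKM (fold change -1.09, SE 0.16, adjusted p = 0.0161). Dkc1, or dyskerin, the pseudouridine synthase itself, was at 6.55, 6.69 and 4.10 FPKM against 9.52, 11.8 and 11.4 FPKM (fold change -0.83, SE 0.19, adjusted p = 0.0440). All 3 had their lowest value in BBR mouse 3. Nop10, another protein of the same particle, differed less. It was at 27.9, 31.0 and 23.6 FPKM in BBR mice and at 30.2, 36.2 and 35.6 FPKM in SASP mice, with BBR mouse 2 above SASP mouse 1 (fold change -0.30, SE 0.13, adjusted p = 0.174). Ratios within a mouse, picked after the values were seen, do not depend on how libraries are scaled. Nhp2 to Nop10 was 0.389 to 0.459 under BBR and 0.795 to 0.952 under SASP, and Gar1 to Nop10 was 0.142 to 0.168 and 0.253 to 0.346. Dkc1 to Nop10 was 0.174 to 0.235 and 0.316 to 0.326. None of the 3 ratios overlapped between groups, and with 3 mice per group an exact permutation test cannot go below p = 0.10.

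**Figure D2:**
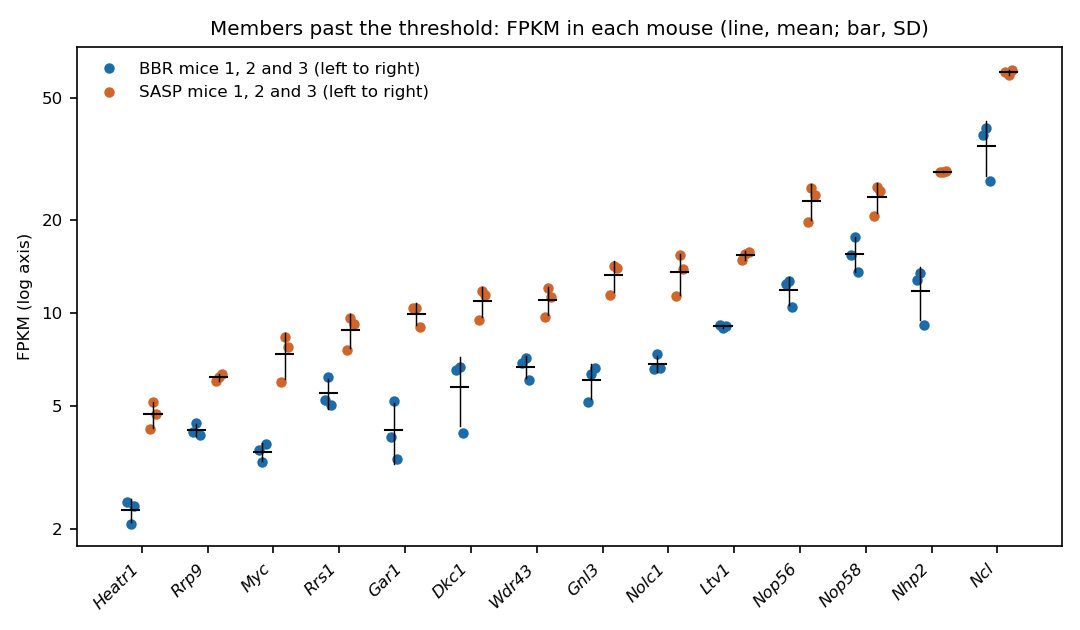
FPKM (vertical log axis) of the 14 members past the threshold in each mouse, BBR in blue and SASP in orange, with the mean as a line and the SD as a bar. The groups are separate for every gene, and Nhp2 shows the SASP mice nearly on 1 point at 28.7 to 28.9 FPKM.

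The small subunit genes were split. Of 8 members 3 passed the threshold as lower (37.5%, against 5.04% of all tested genes). In every BBR mouse 5 lay below SASP (62.5%, against 16.6% of all tested genes), while Utp4, Tsr1 and Utp20 had overlapping groups. Heatr1, Wdr43, Wdr75 and Utp4 belong to a complex that links transcription of ribosomal RNA to the start of its processing. Heatr1 was at 2.45, 2.08 and 2.37 FPKM in BBR mice and at 4.23, 5.16 and 4.71 FPKM in SASP mice (fold change -0.79, SE 0.13, adjusted p = 0.0205). Wdr43 was at 6.92, 7.15 and 6.09 FPKM against 9.75, 12.1 and 11.3 FPKM (fold change -0.64, SE 0.13, adjusted p = 0.0327). Wdr75 had a fold change of -0.48 (SE 0.13, adjusted p = 0.0610) without overlap. Utp4 of the same complex showed no such pattern. It was at 6.84, 7.11 and 6.45 FPKM in BBR mice and at 5.09, 8.42 and 6.80 FPKM in SASP mice, and its fold change of 0.03 (SE 0.17, adjusted p = 0.924) had no stable sign, being -0.06 after quantile normalization and -0.09 after median-ratio scaling. Ltv1, a late 40S assembly factor, separated the groups most tightly of these genes. It was at 9.13, 8.95 and 9.11 FPKM in BBR mice and at 14.9, 15.5 and 15.8 FPKM in SASP mice (fold change -0.70, SE 0.10, adjusted p = 0.0136). Rrp12, a factor of 40S maturation and export, did not pass (fold change -0.66, SE 0.18, adjusted p = 0.0645). Tsr1, another late 40S factor, was at 35.4, 32.4 and 19.1 FPKM against 23.5, 26.7 and 27.5 FPKM, again with BBR mouse 3 apart from the other BBR mice (fold change 0.11, adjusted p = 0.756, and -0.02 with median-ratio scaling). Utp20, a large scaffold protein of the early particle, had a fold change of 0.16 (SE 0.21, adjusted p = 0.622).

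For 60S assembly, 7 of 7 members lay below SASP in all BBR mice, against 16.6% of all tested genes. Only Rrs1 passed the threshold (14.3%, against 5.04% of all tested genes called lower). Rrs1, needed to load part of the central protuberance of the large subunit, was at 5.25, 6.21 and 5.05 FPKM in BBR mice and at 7.59, 9.69 and 9.23 FPKM in SASP mice (fold change -0.59, SE 0.14, adjusted p = 0.0468). Pes1, Bop1 and Wdr12 form 1 complex. Wdr12 was at 2.64, 2.60 and 1.85 FPKM against 3.71, 4.75 and 4.19 FPKM and narrowly missed the threshold (fold change -0.64, SE 0.16, adjusted p = 0.0515). Bop1 was at 10.4, 10.8 and 8.45 FPKM against 13.5, 15.0 and 13.2 FPKM (fold change -0.46, SE 0.13, adjusted p = 0.0645). Pes1 had the smallest difference of the 7 genes, at 13.3, 14.5 and 10.5 FPKM against 14.8, 18.03 and 14.9 FPKM (fold change -0.30, SE 0.15, adjusted p = 0.209). Noc2l, a nucleolar protein that also inhibits histone acetylation, had a fold change of -0.73 (SE 0.20, adjusted p = 0.0645). Nop2, an RNA methyltransferase, and Nop16 had fold changes of -0.52 and -0.49 (adjusted p = 0.0798 and 0.0996).

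Single mice differed in a similar way across the members. BBR mouse 3 had the lowest value of all mice in 26 of 37 members, and SASP mouse 2 had the highest in 23. Centred on the mean of each gene, the median member was at -0.24, -0.14 and -0.44 on the log2 scale in BBR mice 1, 2 and 3 and at 0.16, 0.40 and 0.32 in SASP mice 1, 2 and 3. The groups did not overlap, and SASP mouse 1 lay closest to the BBR mice. Over all tested genes the medians were 0.06, 0.13 and -0.09 in BBR mice and -0.08, -0.01 and -0.04 in SASP mice. Of the 37 members 15 were not called although all their BBR values lay below SASP. Among all 12072 tested genes the BBR values lay below SASP in 2007, and 608 were called lower.

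**Figure D3:**
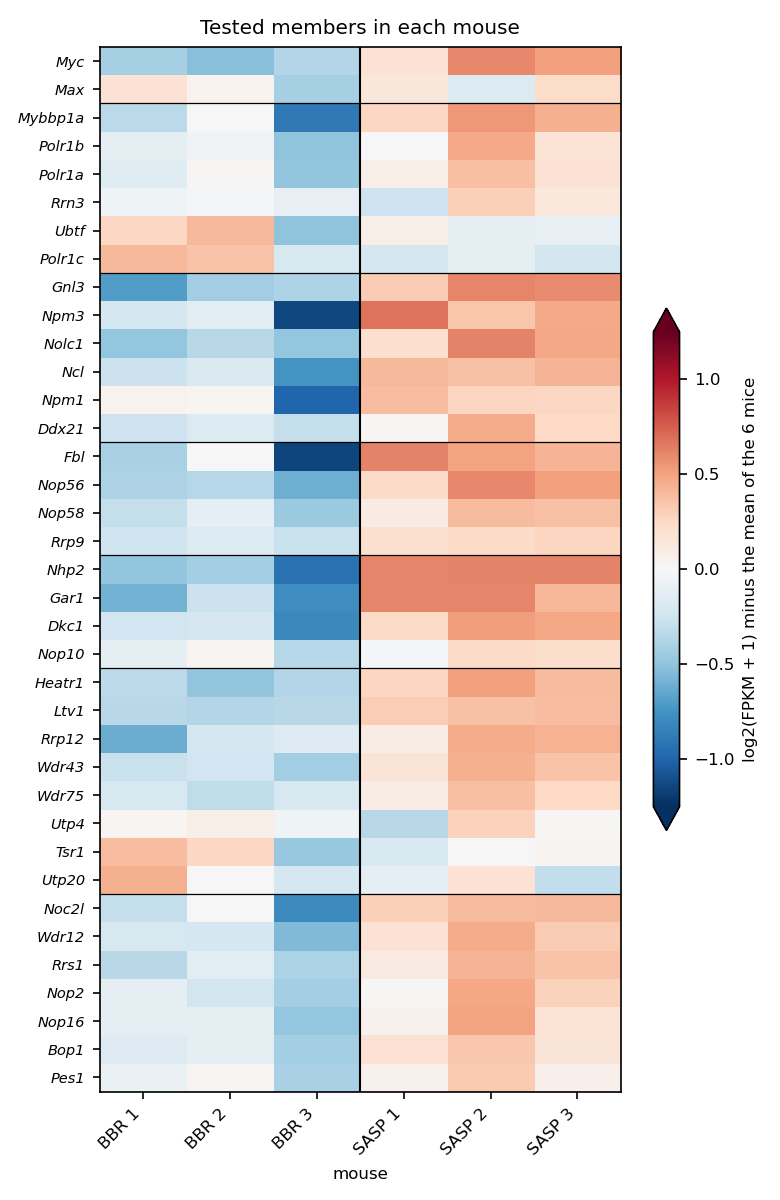
Log2(FPKM + 1) of the 37 tested members in each mouse, centred on the mean of the 6 mice per gene (blue below, red above), in the order of roles of the fold change plot, from Myc and Max at the top to 60S assembly at the bottom. The BBR columns are mostly blue and the SASP columns mostly red. Ubtf, Polr1c, Tsr1 and Utp20 are red in BBR mouse 1, and BBR mouse 3 is the darkest blue for Npm3, Fbl and Npm1.

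Other genes of ribosome production were examined as lists of other factors of the same steps. Of 113 tested genes 9 were lower and 1 was higher past the threshold. The share called lower was 7.96%, against 5.04% of all genes. The groups were separate with BBR below in 44 (38.9%, against 16.6% of all tested genes), and the median was -0.19. Other RNA polymerase I genes had 0 of 15 past the threshold in limma, against 8.86% of all genes in either direction. At an unadjusted p of at most 0.05, 1 was lower and 1 higher, and the median was 0.00. Their smallest p-values were those of Polr2h, a subunit common to the RNA polymerases (fold change -0.46, adjusted p = 0.0792), Polr1d (0.32, adjusted p = 0.0865) and the promoter factor Taf1a (0.33, adjusted p = 0.165). Other small subunit factors had 2 of 45 lower (4.44%, near the 5.04% of all genes) and 0 higher, with a median of -0.17. Noc4l, a factor of small subunit assembly, differed more than any of the 14 called members, at 4.66, 4.76 and 4.69 FPKM in BBR mice and at 16.4, 12.7 and 12.9 FPKM in SASP mice (fold change -1.38, SE 0.13, adjusted p = 0.00466). Pno1, a factor of small subunit maturation, had a fold change of -0.72 (adjusted p = 0.0132), and Mphosph10 one of -0.58 (adjusted p = 0.0626). Other 60S factors had 7 of 53 lower (13.2%, against 5.04% of all genes) and 1 higher, with a median of -0.23. The groups were separate with BBR below in 49.1% of them, against 16.6% of all tested genes. The 7 lower calls became 0 without SASP mouse 1 or SASP mouse 3 and 1 without BBR mouse 1. They became 2 without BBR mouse 2 or SASP mouse 2, and 13 without BBR mouse 3. The count called higher was 0 in each of these fits except that without BBR mouse 3, where it was 4. Mrto4 and Lyar, both nucleolar, were lower, with fold changes of -1.0 and -1.05 (adjusted p = 0.00826 and 0.00985). Sbds, which acts on the finished large subunit in the cytoplasm, was the 1 gene that was higher. It was at 98.9, 102 and 87.0 FPKM in BBR mice and at 64.5, 53.1 and 60.2 FPKM in SASP mice (fold change 0.69, SE 0.12, adjusted p = 0.0215).

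Genes that encode the proteins of the ribosome itself were examined next. Of 77 cytosolic ribosomal protein genes 0 passed the threshold in limma, against 8.86% of all tested genes in either direction. An unadjusted p of at most 0.05 was found for 0, and the groups overlapped in all 77. Their median was -0.05, and its sign was not stable, with -0.18 by median-ratio scaling, 0.18 without BBR mouse 3 and 0.24 with array weights. The last of these fits, which gave most weight to BBR mouse 1 and SASP mouse 3, called 40 of them higher. Summed FPKM was 40332, 38287 and 24280 in BBR mice and 37224, 33336 and 33285 in SASP mice, with BBR mouse 3 low. The smallest p-values belonged to Rpl9, Rpl27 and Rps2, with fold changes of 0.35, -0.32 and -0.35 (adjusted p = 0.239, 0.265 and 0.328). Reads of ribosomal protein genes may be shared with their many processed pseudogenes, which leaves single values uncertain. Translation factors had 4 of 23 lower (17.4%, against 5.04% of all genes) and 0 higher, with a median of -0.19. These calls were 0 in 5 of the 6 fits that left out a mouse, and without BBR mouse 3 there were 6 lower and 1 higher. Of these Eif4a1, the helicase that unwinds messenger RNA for initiation, had a fold change of -0.50 (SE 0.09, adjusted p = 0.0279). Eef1e1, a scaffold of tRNA synthetases, and the initiation factor Eif2s1 had fold changes of -0.79 and -0.48 (adjusted p = 0.0361 for both).

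Myc target genes outside the nucleolus included many that were lower under BBR. Of 40 genes 13 were lower (32.5%, against 5.04% of all genes) and 0 higher, with a median of -0.69. Ranbp1, a regulator of nuclear transport, was at 39.3, 44.6 and 31.9 FPKM in BBR mice and at 94.6, 83.0 and 87.7 FPKM in SASP mice (fold change -1.19, SE 0.14, adjusted p = 0.00862). Srm, spermidine synthase of the polyamine pathway, was at 3.85, 5.24 and 5.26 FPKM against 10.3, 11.7 and 14.2 FPKM (fold change -1.17, SE 0.17, adjusted p = 0.0153). Nme1, a nucleoside diphosphate kinase, had a fold change of -1.22 (adjusted p = 0.0178). The count was 0 without SASP mouse 1 or SASP mouse 3, 1 without BBR mouse 1 and 5 without SASP mouse 2. It was 12 without BBR mouse 2 and 22 without BBR mouse 3, of which 21 were lower. Of 17 other genes of the Myc/Max network 1 was lower past the threshold (5.88%, near the 5.04% of all genes). It was Ruvbl1, an ATPase cofactor of Myc (fold change -0.48, adjusted p = 0.0472). The count for this list was 0 when BBR mouse 1, BBR mouse 2 or any 1 SASP mouse was left out. Without BBR mouse 3, 3 genes were lower and 7 higher. The median of this list was 0.23. Mxd4, a repressor that competes with Myc for Max, was at 32.8, 32.9 and 19.2 FPKM in BBR mice and at 15.4, 16.8 and 14.6 FPKM in SASP mice, so all BBR mice lay above, without passing the threshold (fold change 0.78, SE 0.21, adjusted p = 0.0629). Mlx, the partner of a parallel network, had a fold change of -0.34 (adjusted p = 0.0716). Genes of the p53 pathway, which responds to faults in ribosome assembly, had 1 of 16 lower and 1 higher. The share called lower was 6.25%, near the 5.04% of all genes, of which 3.82% were called higher. Fas, a death receptor, had a fold change of -1.38 (adjusted p = 0.00891) and Gdf15, a stress cytokine, one of 1.37 (adjusted p = 0.0185), while Phlda3 had one of 0.62 (adjusted p = 0.0747).

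**Figure D4:**
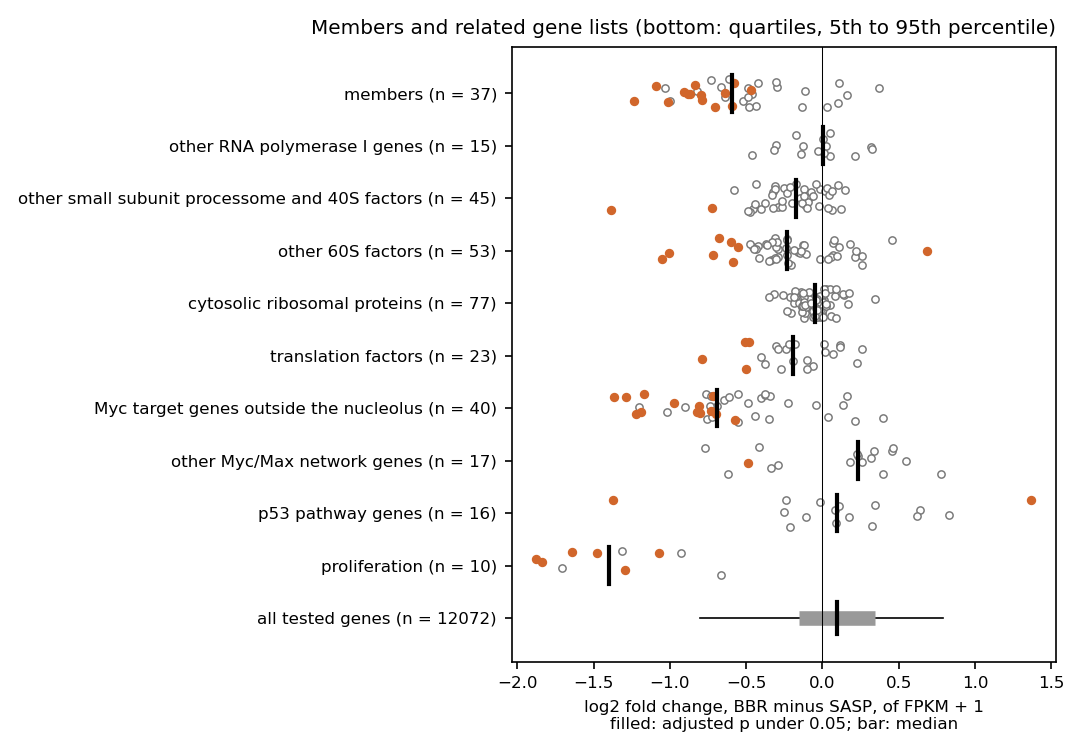
Log2 fold changes (BBR minus SASP) of single genes for the members and 9 related lists, with the median as a bar and filled points for an adjusted p under 0.05. The bottom row gives the quartiles and the 5th to 95th percentile of all 12072 tested genes. The medians of the members and of the Myc target genes lie left of those of the other ribosome biogenesis lists, ribosomal protein genes lie close around 0, and the median of the proliferation genes lies farthest left.

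Several sets of markers of cell states and of other cells differed between the groups. Over all tested genes 5.04% were called lower and 3.82% higher. The BBR values lay wholly below SASP in 16.6% of all tested genes and wholly above in 21.3%. The 10 proliferation markers had a median of -1.40, with 6 lower past the threshold, and their summed FPKM was 72.4 to 124 in BBR mice and 227 to 294 in SASP mice. The count was 0 without BBR mouse 1, SASP mouse 1 or SASP mouse 3, 1 without SASP mouse 2, 4 without BBR mouse 2 and 9 without BBR mouse 3. Smooth muscle markers summed to more in every BBR mouse than in every SASP mouse, at 2905 to 6833 FPKM against 763 to 2334 FPKM, with BBR mouse 3 highest and SASP mouse 1 lowest, and 0 of 10 passed the threshold in limma although 8 had an unadjusted p of at most 0.05. Stromal markers were at 313 to 424 FPKM against 152 to 248 FPKM, with 4 of 9 higher past the threshold. Macrophage markers were at 81.4 to 96.7 FPKM against 155 to 182 FPKM in sum, with 2 of 9 lower, but 6 of 9 had overlapping groups, 1 had BBR above SASP, and the median was -0.18. Of 10 interferon-stimulated genes 10 were lower, at 201 to 245 FPKM against 1381 to 2872 FPKM. T cell markers were near 0, with sums of 4.55 to 6.63 and 3.44 to 7.86 FPKM. Granulocyte markers overlapped at 192 to 567 and 357 to 536 FPKM, with S100a8 and Mpo at 0 in at least 1 mouse and 1 of 5 tested genes lower. The part of these cells and states in the lower member levels was not tested. Adding a smooth muscle covariate left 19 calls among all genes and 0 among the members, whose median was -0.57. Because the smooth muscle sums did not overlap between groups, that fit cannot separate smooth muscle content from the drug. Neither its calls nor its median therefore bear on the make-up of the tissue.

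Some members share exonic sequence with a coding gene on the opposite strand, and the library kit named in the labels does not keep strand. In GENCODE M21 this was true of 12 members, of which Dkc1, Gnl3, Heatr1, Nhp2, Nop56 and Rrp9 were called. The neighbour of Nhp2, Rmnd5b, had a fold change of 0.19 (adjusted p = 0.391). Those of Gnl3 and Nop56, Pbrm1 and Idh3b, had fold changes of -0.02 and -0.07 (adjusted p = 0.925 and 0.872). Parp3, which overlaps Rrp9, was itself lower (fold change -0.69, adjusted p = 0.0483), and Mpp1 and Lgals8, which overlap Dkc1 and Heatr1, had fold changes of -0.67 and -0.35 (adjusted p = 0.0598 and 0.0669). Exons of the called Ncl, Gnl3, Nop56 and Nop58 also overlap small nucleolar RNA genes on the same strand. The part of such reads in their values was not tested.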

How the data were processed

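The deposited table holds FPKM values per gene and mouse, which the authors calculated with RSEM 1.2.12 after alignment with Bowtie2 2.2.5 and rounded to 2 decimals. The submitters' processing notes name the build mm9, and the annotation is not given in the sources used here. The labels name an Illumina library kit, whereas the methods of the study describe depletion of ribosomal RNA and sequencing of single-end reads from DNA nanoballs. Reads that map to more than 1 gene are shared out by estimation in RSEM. Groups came from the treatment labels. Replicate numbers follow accession order and pair no mice. Nothing in the labels states that samples of a group came from separate mice, and if they did not, p-values measure technical spread.

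FPKM were transformed as log2(FPKM + 1), and genes were fitted if they reached 1 FPKM in 3 or more samples, with limma 3.58.1 in R 4.3.3 (empirical Bayes with a mean-variance trend, two-sided, Benjamini-Hochberg adjustment). The procedure was tested on simulated data with independent noise and changes larger than that of any member. That test does not show how well changes of the members' size are found. The study called genes at an unadjusted P-value of at most 0.05 without naming the test. Members, roles, lists, tests and alternatives were chosen with earlier results of these data known. The text names every member and up to 3 genes with the smallest p of each other list. The p53 list shares Rpl5 and Rpl11 with the ribosomal protein list. Alternatives covered the pseudocount, the filter, 2 other scalings, the variance trend, array weights, a smooth muscle covariate and leaving out each mouse. Depth was estimated from genes detected in a single mouse with a transcript under 1500 bases in GENCODE M21, taken as 1 read each. Reads per member were derived from this depth and the longest transcript of the gene. Promoter windows are from RefSeq, and their build differs from that of the table. The result of 1 marker list is not reported here.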

Additional observations from a re-analysis of the deposited data

How the results depend on the processing

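The members' median log2 fold change stayed between -0.71 and -0.50 in every alternative, and 30 of 37 members, the 14 called ones among them, kept a fold change below 0 throughout. The number of calls did not hold. The 14 calls became 9 with no filter, 27 with quantile normalization, 28 with median-ratio scaling, 33 with array weights (29 lower, 4 higher), 0 with the smooth muscle covariate and 26 at an unadjusted p of at most 0.05. They ranged from 0 to 27 when 1 mouse was left out, the lowest without SASP mouse 1 or 3 and the highest without BBR mouse 3. In the same order, calls among all genes went from 1069 to 608, 1731, 1684, 7126, 19 and 3837, with 51 to 4018 when 1 mouse was left out. The 10 calls of other ribosome biogenesis genes became 5, 26, 28, 64 and 0, with 1 to 24, and their median of -0.19 moved to -0.29 after quantile normalization and to -0.30 after median-ratio scaling. The last scaling shifted the median of all genes by -0.12, to -0.02, and calls among all genes went from 461 higher and 608 lower (43.1% higher) to 498 and 1186 (29.6% higher). With array weights they were 4636 and 2490 (65.1% higher). These weights were 5.32 for BBR mouse 1 and 4.85 for SASP mouse 3, and 0.129 to 0.746 for the other mice. The fit with array weights thus rests mostly on 1 mouse of each group, and its calls are to be read with that limit.

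Fold changes that changed sign were all of members that were not called. Max was 0.22 with the smooth muscle covariate and 0.042 without BBR mouse 3. Rrn3 was 0.0046 without SASP mouse 2, in a range from -0.27 when 1 mouse was left out. Ubtf was -0.029 with median-ratio scaling and -0.073 without BBR mouse 2, 0.38 without BBR mouse 3 and 0.57 with the covariate. Utp4 was -0.061 after quantile normalization, -0.088 with median-ratio scaling, -0.26 with the smooth muscle covariate, -0.0012 without BBR mouse 2 and -0.14 without SASP mouse 1, with up to 0.18 without SASP mouse 2. Utp20 was -0.025 without BBR mouse 1, 0.31 without BBR mouse 3 and 0.62 with array weights, where it was called higher (limma adjusted p = 0.00496). Tsr1 was -0.019 with median-ratio scaling and -0.053 without BBR mouse 1, with up to 0.38 without BBR mouse 3. The cause was not tested. No paired analysis was possible because the labels give the mice no shared replicate numbers. FPKM hold no counts, so intervals from depth could not be given.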
